A study of Mus musculus with 2 samples.

Results

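Annexins, galectins and S100 proteins form a group of calcium- or sugar-binding proteins that were followed here through 10 genes: Anxa1, Anxa2, Anxa4, Anxa5, Anxa6, Lgals1, Lgals3, S100a4, S100a6 and S100a10. They were taken by symbol from the platform's annotation, which gave 11 probes, 2 of them for S100a4, and all 11 probes had a value on both arrays. The 10 genes stand among 14150 genes with a single symbol and a value on both arrays. The material was total RNA of CD8+ T cells of the transgenic pmel mouse, whose T cell receptor recognises gp100, a protein of melanocytes, taken after 2 rounds of stimulation in vitro and after 1 round. Age, strain background and culture conditions are not given in the sources used here, and no unstimulated cells entered the comparison.

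Cells after 2 stimulations were in channel 2 and cells after 1 stimulation in channel 1 of each of 2 arrays, which form 1 group, and 1 of them is labelled a repeat of the other. The labels do not say whether it came from a new culture, so the errors and p-values cover only how 2 arrays vary, which may be technical. A value compares the channels as a log ratio, read here as base 2. The numerator is not stated. The titles name the cells after 1 stimulation first, so on that order alone a negative value is likely RNA more abundant after 2 stimulations and a positive value RNA more abundant after 1 stimulation. With the other order the sides swap, so the values are given as the negative and the positive side. The dyes are not stated, and a dye bias of a probe, if both arrays were labelled the same way, cannot be told apart from a difference in RNA. Signal intensities were not used here, and whether a probe was above background is unknown.

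Annexins bind acidic phospholipids of membranes when calcium rises, and take part in membrane repair, vesicle traffic and signalling. Galectins bind galactose-containing sugars on glycoproteins and, outside the cell, cross-link surface receptors of T cells. S100 proteins are small EF-hand proteins that bind partner proteins, and several of them pair with annexins. Genes of all 3 families are known as parts of the programme that effector and memory T cells express more than naive T cells do.

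Most of the 10 genes lay on the negative side, led by Lgals3, Anxa1 and Anxa2, while Anxa5 and S100a10 lay close to 0 and the S100a4 probes read opposite ways. Of the 11 probes, 8 were negative on both arrays, against 29.3% of all 21427 probes, and 1 was positive on both, against 33.0% of all probes. A negative ratio of 2-fold or more on each array was seen for 3 probes, those of Anxa1, Anxa2 and Lgals3, where 0.579% of all probes were as far, and a positive one of that size for 0, against 0.275% of all probes. On array 1 alone (without replicate 2) the negative count was 5, and on array 2 alone (without replicate 1) it was 4. The share of all probes past 2-fold on a single array was not counted, so nothing is read from these single-array counts. limma's moderated test, adjusted over all probes, called 0 of the 11 (0% of all probes were called), with adjusted p-values between 0.162 and 0.778, 0.162 being also the smallest of the whole table. At limma's unadjusted p under 0.05 there were 7 negative probes, against 8.00% of all probes, and 0 positive probes, against 6.87%. Members were chosen with earlier results of these data known, so the counts here describe the list and are no test of it.

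**Figure D1:**
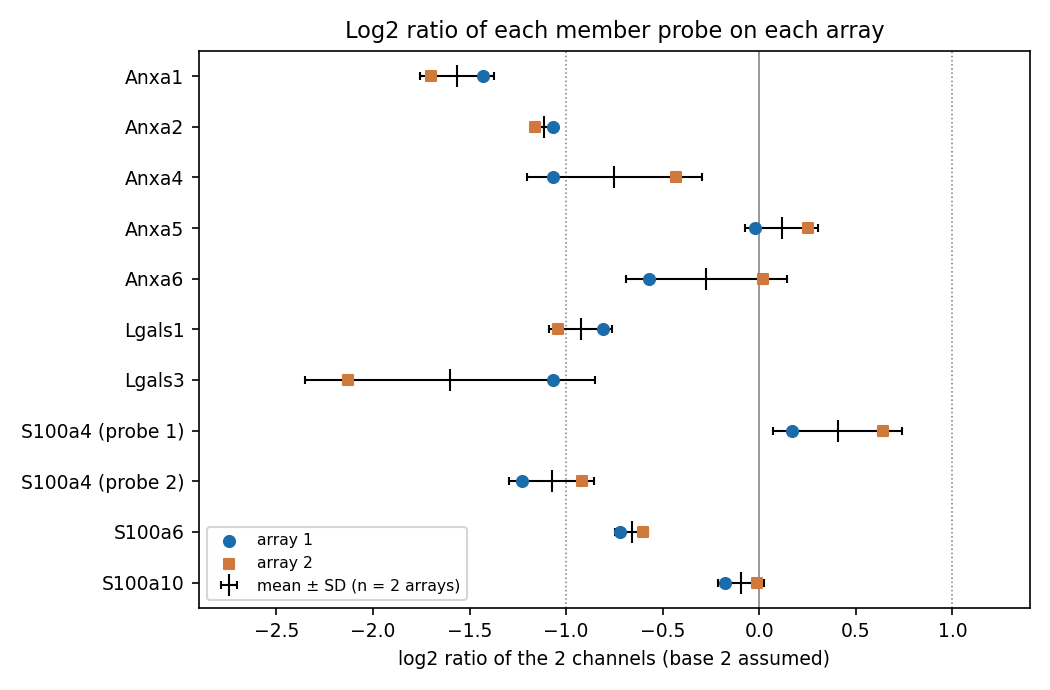
Log2 ratio (base 2 assumed) of each of the 11 member probes on array 1 (circles) and array 2 (squares), with the mean and SD over the 2 arrays and dotted lines at 2-fold. Lgals3, Anxa1 and Anxa2 lie beyond the 2-fold line on both arrays, and the S100a4 probes lie on opposite sides of 0.

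The promoter windows of the 3 genes past 2-fold on each array and of S100a4 are shown, since these genes carry the largest values of the group. They are the 250 bases before the annotated start, on the strand of the gene, from RefSeq's GRCm38.p6 tables, in which 7 of the 10 genes were found with 8 starts. Capitals mark TATAAA, the core of the TATA box. The Anxa1 window is chr19:20390672-20390921 on the minus strand, that of Anxa2 chr9:69453433-69453682 on the plus strand, that of Lgals3 chr14:47373610-47373859 on the plus strand and that of S100a4 chr3:90603520-90603769 on the plus strand.
Anxa1: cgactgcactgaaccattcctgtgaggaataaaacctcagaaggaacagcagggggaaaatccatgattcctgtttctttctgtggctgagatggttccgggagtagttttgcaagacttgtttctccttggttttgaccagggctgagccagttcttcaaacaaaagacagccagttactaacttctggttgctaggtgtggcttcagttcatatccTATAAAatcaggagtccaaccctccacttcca
Anxa2: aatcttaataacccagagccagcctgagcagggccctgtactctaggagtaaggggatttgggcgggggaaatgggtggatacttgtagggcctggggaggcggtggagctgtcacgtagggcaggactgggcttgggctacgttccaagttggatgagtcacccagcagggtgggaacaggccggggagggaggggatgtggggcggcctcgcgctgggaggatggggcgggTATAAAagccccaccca
Lgals3: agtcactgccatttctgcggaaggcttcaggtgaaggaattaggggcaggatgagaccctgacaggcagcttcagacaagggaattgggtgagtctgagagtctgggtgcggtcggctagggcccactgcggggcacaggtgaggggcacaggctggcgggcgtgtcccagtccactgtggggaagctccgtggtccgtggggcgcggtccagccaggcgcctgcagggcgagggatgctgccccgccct
S100a4: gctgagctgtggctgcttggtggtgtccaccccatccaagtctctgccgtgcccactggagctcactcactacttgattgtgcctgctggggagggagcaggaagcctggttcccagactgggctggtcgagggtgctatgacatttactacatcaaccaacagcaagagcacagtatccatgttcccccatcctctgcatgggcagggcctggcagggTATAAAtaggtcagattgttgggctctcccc

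TATAAA, chosen after the sequences were read and searched on both strands, was found in 3 of the 8 windows, against 12.4% of all 32851 promoter windows in the table. It begins 32 bases before the start in Anxa1, 17 bases in Anxa2 and 31 bases in S100a4, and was not found in the windows of Lgals3, Anxa4, Anxa5 and S100a6. Of 4 further motifs searched on both strands, the GC box GGGCGG occurred in 2 of the 8 windows (32.7% of all), with 3 matches in Anxa2 and 1 in Lgals3. The AP-1 site TGANTCA occurred in 1, that of Anxa2, against 6.75% of all, and begins 95 bases before the start. The E-box CANNTG occurred in 4 (66.2% of all), and the T-box site AGGTGTGA in 0 (1.12% of all). These matches describe letters only, and no motif was found in the windows of all 3 genes past 2-fold on each array.

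Among the annexins, Anxa1 lay farthest from 0. Anxa1 encodes annexin A1, which inhibits phospholipase A2 and signals through formyl peptide receptors. Its probe read -1.43 on array 1 and -1.70 on array 2. Both arrays were on the same side and close to each other, with an average of -1.56 ± 0.19 (SD, n = 2) on the log2 scale, which is 2.96-fold, and a 95% interval of -1.97 to -1.16. The probe ranked 38th from the most negative of 21427 by its mean, and limma's adjusted p was 0.162 (unadjusted 0.000286). Anxa2 encodes annexin A2, which joins S100A10 in a complex beneath the plasma membrane, and its probe read -1.07 and -1.16. The arrays differed by only 0.09 (array 2 minus array 1 was -0.09), around a mean of -1.11 ± 0.06 (SD, n = 2), a 2.17-fold difference with limma's adjusted p at 0.162.

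The other 3 annexins agreed less between the arrays or lay near 0. Anxa4, whose product binds membranes of epithelial and secretory cells, read -1.07 on array 1 and -0.43 on array 2, so only array 1 passed 2-fold. Its mean was -0.75 ± 0.45 (SD, n = 2), with limma's adjusted p at 0.251. Anxa6 encodes the largest annexin, with a doubled core, which recruits the Ras inhibitor p120GAP to membranes. Its probe read -0.57 on array 1 and 0.02 on array 2, so the sign was not shared, and the interval of its mean ran from -0.80 to 0.25. Anxa5, the phosphatidylserine-binding annexin used as a stain for dying cells, also changed sign, with -0.02 and 0.25 and an interval of -0.29 to 0.52. Over the 5 annexins the median was -0.75, with -1.07 on array 1 and -0.43 on array 2. Of the 5, 3 were negative on both arrays, against 33.6% of all genes.

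Both galectins were on the negative side on both arrays, against 33.6% of all genes. Lgals3 encodes galectin-3, a galectin with a long flexible tail that forms lattices with N-glycans on T cell receptors and was first described on macrophages as Mac-2. Its probe read -1.07 on array 1 and -2.13 on array 2, a mean of -1.60 ± 0.75 (SD, n = 2) and a 3.03-fold difference. The size rests more on array 2, and the arrays differed by -1.06 (array 2 minus array 1), the widest gap of the 11 probes. limma's adjusted p was 0.178, and the 95% interval ran from -2.37 to -0.83. Lgals1 encodes galectin-1, a small dimeric galectin that can induce death of activated T cells. Its probe read -0.81 and -1.04, so array 2 alone passed 2-fold, with a mean of -0.93 ± 0.16 (SD, n = 2), a 1.90-fold difference and limma's adjusted p at 0.168. The log2 ratio of Lgals3 minus that of Lgals1 was -0.26 on array 1 and -1.09 on array 2, so the order of the galectins held on both arrays but its size did not. That difference was not tested.

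Among the S100 genes, S100a6 and S100a10 had negative values on both arrays, and S100a4 had probes on opposite sides. S100a4 encodes a protein that binds non-muscle myosin and is linked to cell motility. It has 2 probes, counted here in the order of their probe numbers. Probe 2 read -1.23 and -0.92, a mean of -1.07 ± 0.22 (SD, n = 2) with limma's adjusted p at 0.165. Probe 1 read 0.17 and 0.64, a mean of 0.41 ± 0.33 (SD, n = 2) with limma's adjusted p at 0.387. Each probe kept its sign on both arrays and the signs are opposite, so the probes are described singly, and their average enters only where 1 value per gene is taken. The probes carry different transcript records in the annotation, and their sequences were not compared.

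S100a6 encodes calcyclin, a partner of the calcyclin-binding protein CACYBP that is abundant in proliferating cells. Its probe read -0.72 and -0.60, close to each other, with a mean of -0.66 ± 0.08 (SD, n = 2), a 1.58-fold difference and limma's adjusted p at 0.196. S100a10 encodes the annexin A2 partner p11, a member whose EF hands no longer bind calcium. Its probe read -0.18 and -0.01, a mean of -0.10 ± 0.12 (SD, n = 2) whose interval, -0.48 to 0.29, includes 0.

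The subunits of the annexin A2 complex had unlike ratios. The log2 ratio of Anxa2 minus that of S100a10 was -0.89 on array 1 and -1.15 on array 2. On both arrays the annexin subunit lay farther to the negative side, a difference that was not tested. For Anxa1 and its known partner gene S100a11 the same difference was -0.90 and -1.78, with S100a11 itself at -0.53 and 0.08.

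**Figure D2:**
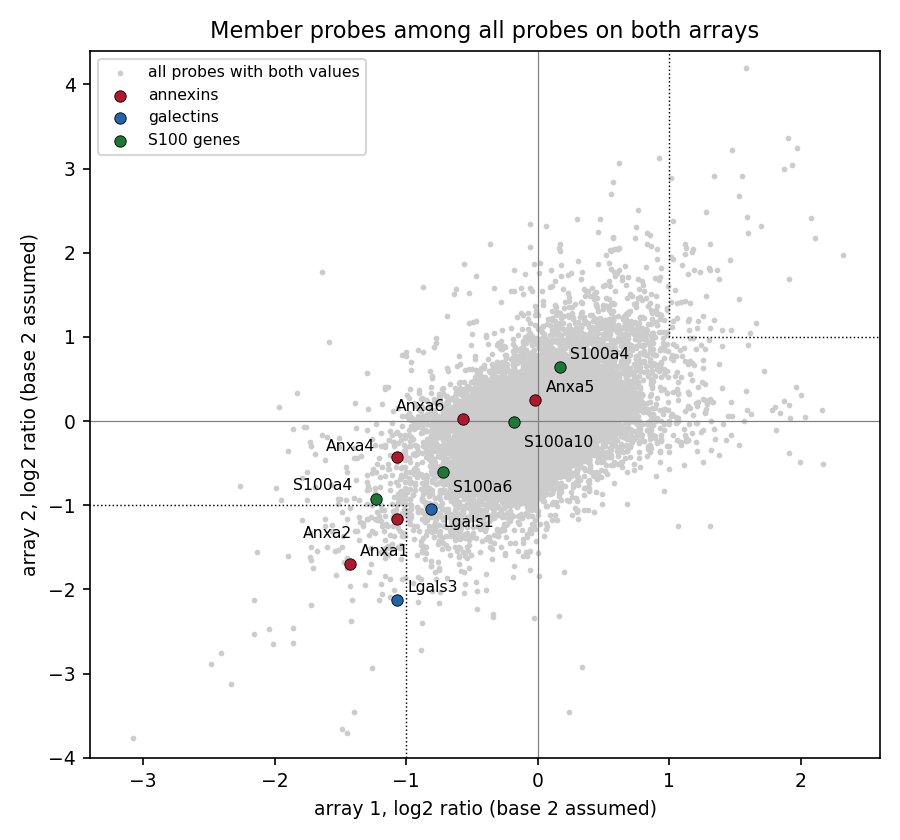
Log2 ratio on array 1 (x axis) against array 2 (y axis) for 21427 probes in grey, with the member annexins, galectins and S100 probes in colour and dotted corners at 2-fold on both arrays. The probes of Anxa1, Anxa2 and Lgals3 fall inside the lower left corner, and 0 members fall inside the upper right one.

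Over the whole table, whose probes are not independent replicates, Pearson's r between arrays was 0.494 and Spearman's rho 0.420, and the difference between arrays had an SD of 0.422. Of the 11 probes, the differences between arrays of Anxa4, Anxa6, Lgals3 and the positive S100a4 probe were wider than that. Taken as 1 value per gene, with both S100a4 probes averaged, the 10 genes had a median log2 ratio of -0.71, from -0.77 on array 1 and -0.52 on array 2 taken singly. Over all 14150 genes the median was -0.02.

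Counts for the lists that follow take 1 value per gene. Over all 14150 genes, 33.6% had negative and 29.6% had positive values on both arrays, and at limma's unadjusted p under 0.05 there were 10.3% negative and 5.86% positive genes, with 0% called after adjustment. At 2-fold on both arrays there were 0.721% negative and 0.233% positive genes, and among the other genes of the 3 families there were 0. Of 7 other annexin genes, 2 had negative and 1 had positive values on both arrays. Their median was -0.12. Anxa7, an annexin of vesicle fusion, was the most negative of them with -0.22 on array 1 and -1.16 on array 2, followed by Anxa11 with -0.45 and -0.08, and Anxa13 read 0.16 and 0.04. Of 6 other measured galectin genes, 1 had negative and 4 had positive values on both arrays, and the median was 0.41. Over all genes the positive share was 29.6%, and with 6 genes nothing is read from the difference. Lgals1 and Lgals3 had negative values. Lgals4, a galectin of the gut epithelium, read 0.18 and 1.17, Lgals12, a galectin of fat cells, 0.62 and 0.36, and Lgals2 -0.33 and -0.09. Lgals9, whose product is a ligand of the inhibitory receptor TIM-3, was also positive, with 0.23 and 0.43. In limma's test 0 of these annexin and galectin genes passed over all genes. At the unadjusted level 1 negative annexin (Anxa7) and 1 positive galectin (Lgals12) did.

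Of 11 other measured S100 genes, 3 had negative and 2 had positive values on both arrays. The median was -0.03, and limma's test called 0 of them over all genes, with 1 (S100g, positive) at an unadjusted p under 0.05. S100g, which encodes an intestinal calcium-binding protein, read 0.73 and 0.42, and S100a9, a calprotectin subunit of neutrophils and monocytes, 0.35 and 0.29. On the negative side S100a13 read -0.36 and -0.21 and S100a1 -0.22 and -0.17. Most S100a genes sit side by side on 1 chromosome, and in RefSeq's gene order S100a5 lies between S100a4 and S100a6. S100a5 read 0.07 and -0.26, so the gene between the pair changed sign where S100a6 did not. S100a10 and S100a11 are neighbours of each other, 62 or more protein-coding genes away from S100a4, and neither read below -0.53 on an array.

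**Figure D3:**
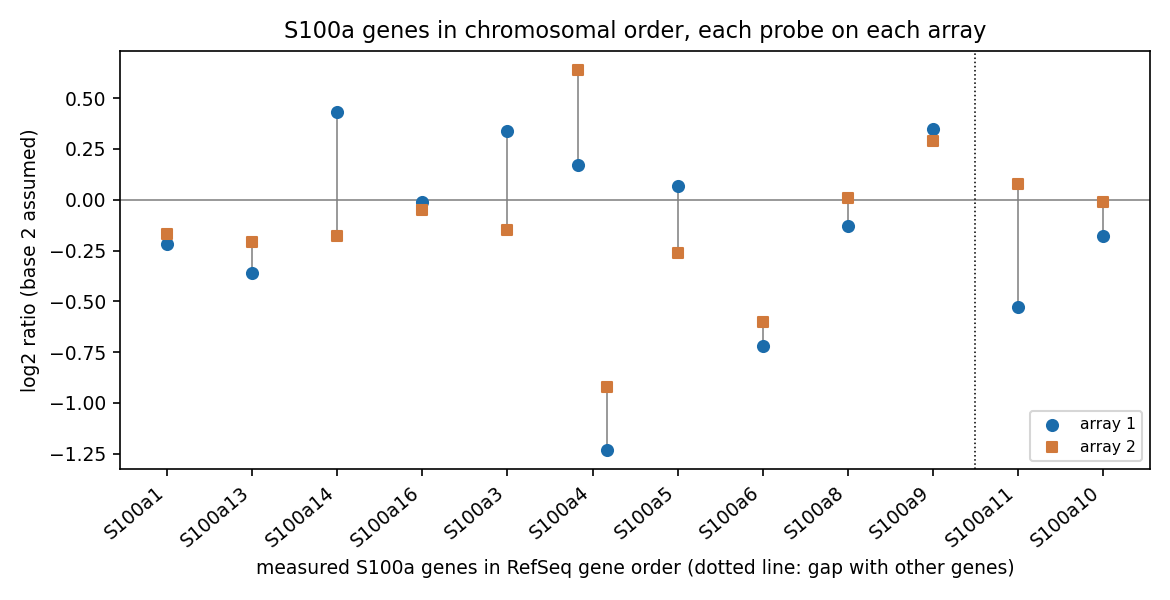
Log2 ratio of each measured S100a gene on array 1 (circles) and array 2 (squares), in RefSeq gene order, with both probes of S100a4 drawn side by side and a dotted line at the gap before S100a11 and S100a10. S100a6 and probe 2 of S100a4 lie below -0.5 on both arrays, while their measured neighbours S100a3 and S100a5 change sign.

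Genes of known binding partners and targets of these proteins lay on both sides of 0. Of 14 measured, 3 had negative and 5 had positive values on both arrays, against 33.6% and 29.6% of all genes. The median was 0. In limma's test 0 passed over all genes and 2 positive ones passed unadjusted, where 5.86% of all genes did. Rasa1, which encodes p120GAP, the partner of annexin A6, read 0.59 and 0.60, on the positive side. Cacybp, the calcyclin partner gene, read -0.06 and -1.28, and Plau, a plasminogen activator gene, -0.03 and -0.83. Cd7, a galectin-1 receptor in human T cells, read 1.02 and 0.08. Pla2g4a, the cytosolic phospholipase A2 gene, read -0.20 and -0.05, and Fpr2, a formyl peptide receptor gene, 0.10 and 0.24. Myh9, the non-muscle myosin heavy chain bound by S100A4, changed sign with -0.23 and 0.09. Lgals3bp, a secreted galectin-3 ligand, read -0.01 and 0.41, Plat -0.51 and 0.13 and Plaur -0.11 and 0.12. The giant scaffold gene Ahnak, whose product binds the annexin A2 complex, had 4 probes with means between -0.28 and 0.35. Their average enters the counts and the median of this list, and is not read as a value of Ahnak.

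Membrane repair genes other than the annexins had 5 negative and 2 positive members by both arrays of 10 measured (33.6% and 29.6% over all genes), and a median of -0.14. Capn2, a calpain protease subunit, read -0.86 and -0.31, Pdcd6ip, the ESCRT adaptor ALIX, -0.61 and -0.42, and Dysf, the repair protein dysferlin, 0.47 and 0.28, with Pdcd6 at 0.10 and 0.16. In limma's test 0 passed over all genes and 3 negative ones passed unadjusted, where 10.3% of all genes did. Enzymes that build the glycans galectins bind were mixed, with 6 negative and 4 positive by both arrays of 14 measured and a median of -0.06. St6gal1, whose sialic acid cap blocks galectin-1 binding, had 4 probes, of which 1 read 1.19 and 1.80 and another 0.60 and 1.76, while the others read 0.05 and 0.25 and then -0.05 and -0.02. St3gal6 read -0.35 and -1.14, Mgat2, an N-glycan branching enzyme, -0.62 and -0.36, and St3gal1 0.10 and 0.61. limma called 0 of these enzymes over all genes. At an unadjusted p under 0.05 there were 2 negative and 1 positive, where 10.3% and 5.86% of all genes were. The positive one was St6gal1, by the average of its 4 unlike probes, which is not read as a value of the gene. C1galt1, counted as negative, is also an average, of 2 probes with means of -0.02 and -0.665.

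Most cytoskeleton and motility genes, a list also chosen with earlier results of these data known, lay on the negative side. Of 23 measured, 15 had negative and 2 had positive values on both arrays, where 33.6% of all genes had negative and 29.6% positive values on both. The median was -0.24. Vim, the intermediate filament protein vimentin, read -1.16 and -1.23 and was the only gene of the list to reach 2-fold on both arrays when probes of a gene were averaged. The gamma-actin gene Actg1 read -0.63 and -1.23 on 1 probe and -1.24 and -1.16 on its other probe. On the positive side were Itgb7, the integrin beta 7 chain, with 0.47 and 0.89, and Tmsb10, an actin-binding thymosin, with 0.23 and 0.33. limma called 0 of the 23 over all genes, and 7 negative and 1 positive passed unadjusted, where 10.3% and 5.86% of all genes did.

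**Figure D4:**
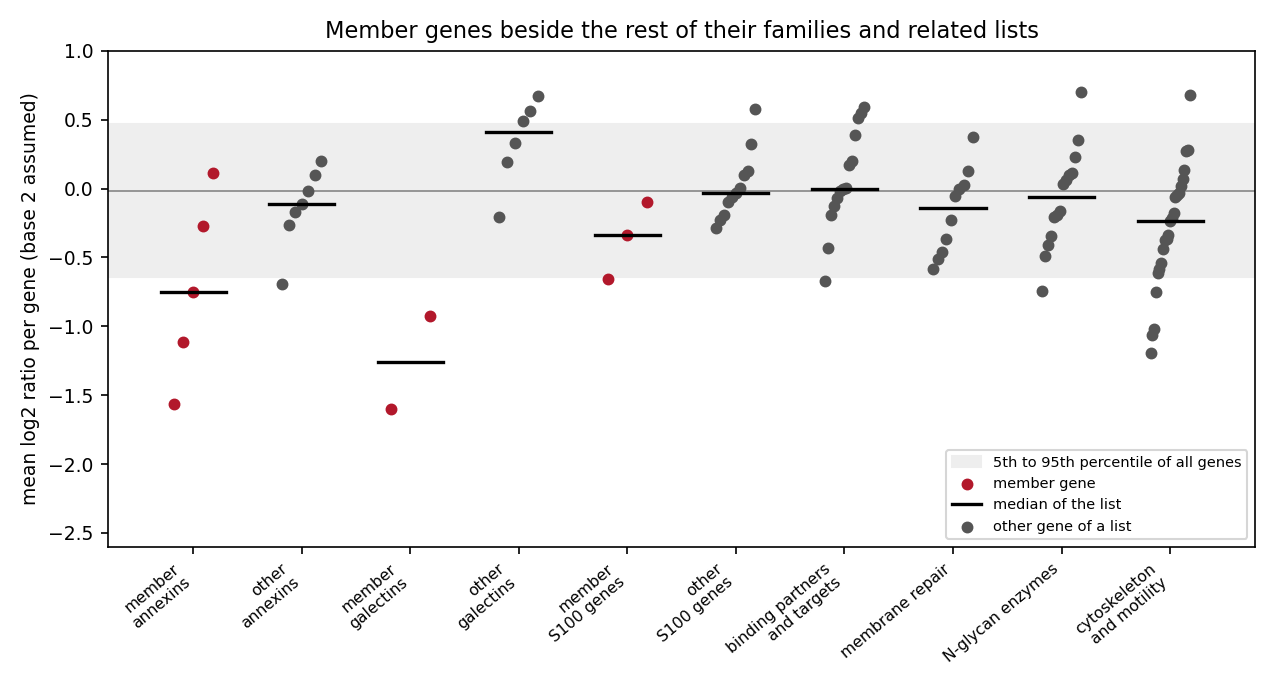
Mean log2 ratio per gene over the 2 arrays (base 2 assumed) for member genes (red) and for the other genes of each family and of 4 related lists (grey), with a bar at each list's median and a band from the 5th to the 95th percentile of all genes. The member annexins and galectins have medians of -0.75 and -1.26, against -0.12 and 0.41 for the other annexins and galectins, and the member S100 genes, with both S100a4 probes averaged, -0.34 against -0.03. Members and lists were chosen with earlier results of these data known, so these contrasts are descriptive and were not tested.

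Lgals3 and several annexins are also abundant in macrophages and fibroblasts, so markers of other cells were read beside them. Of 11 measured macrophage and monocyte markers, 3 had negative and 2 had positive values on both arrays, and the median was 0.005. C1qb read -0.67 and -0.23 and Cd14 -0.55 and -0.20, while Fcgr1 read 0.24 and 1.43 and Lyz2 averaged 0.21. Fibroblast markers had 3 negative and 3 positive of 6, with a median of 0.03, led by Dcn at 0.40, then Col1a1 at 0.13, with Col3a1 at -0.29 and Lum at -0.23. Granulocyte markers had a median of 0.03, with Elane at -0.50 and Camp at -0.28 against Ngp at 0.34 and Ltf at 0.20, and dendritic cell markers 0.27, with Cd83 at 0.16 and 2.06, Ccl22 at 0.37 and Itgax at -0.37. Of 6 B cell markers 5 were positive on both arrays, against 29.6% of all genes. The median of the 6 was 0.46, with 0.255 on array 1 and 0.76 on array 2. Cd79b read 0.67 and 1.62, and Cd79a 0.31 and 1.06. Both measured NK cell markers were negative on both arrays, against 33.6% of all genes, Klrb1c with -0.77 and -1.88 and Ncr1 with -0.27 and -0.25. The CD4 T cell markers had a median of 0.07, and 1 of 3, Cd40lg at 0.33, was positive on both arrays. Cd4 itself read -0.11 and 0.02, and Foxp3 read -0.11 and 0.25. The markers of CD8 T cells themselves had a median of 0.37, with 0.16 on array 1 and 0.63 on array 2. Cd5 read 0.64 and 1.68. Both Cd8a probes were positive, 1 with 0.03 and 0.74 and the other with 0.71 and 1.06. Of these 8 markers, 6 were positive and 0 negative on both arrays, where 29.6% and 33.6% of all genes were. Cd3e changed sign, with -0.09 and 0.45, and Thy1 averaged -0.15. Ratios give no levels, so the labelled cell type could not be checked by abundance, and fewer cells of a type and less RNA per cell cannot be told apart. The part of other cells in the members' values was not tested.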

How the data were processed

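The authors deposited 1 signed value per probe and array, read here as log2 ratios of the 2 channels. Scanner, background correction, normalization, log base and numerator are not given in the sources used here. Of 21919 probes, 21427 had a value on both arrays. Column medians were 0.01 and 0.02, so a shift of all genes would not be seen. The arrays were not copies: 248 probes had the same value on both to the 2 decimals deposited. Gene names come from the platform's annotation table, with the mean of a gene's probes where 1 value per gene is stated.

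limma 3.58.1 in R 4.3.3 fitted an intercept over both arrays against 0 (two-sided) on all 21427 probes, with Benjamini-Hochberg adjustment at 0.05. Counts and medians of lists, and limma's calls on their genes, come from the same fit on 14150 genes. There is 1 residual degree of freedom a probe, and 3.43 came from the prior. The number of arrays limits the precision: the median half-width of a 95% interval was 0.396. The code of the fit was run on simulated independent noise drawn from its own fitted variances, with a known shift added to some probes. That checks the code only, and says nothing of dye bias or of whether the arrays are independent. The size rule asked for 2-fold or more on each array, in the same direction.

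Members and lists were chosen with earlier results of these data known. Named were every member probe, list genes at least 2-fold on both arrays, up to 2 genes on each side of each list with the largest mean of a shared sign, and a fixed set of partner genes, of which Havcr2 had no probe used here. Lgals9, S100a3, S100a5, S100a11, Cd4, Foxp3, Cd3e, Thy1 and C1galt1 were named beyond this rule after their values were seen. Promoter sequences are from RefSeq (GRCm38.p6), and no genome positions were assigned to probes. Alternatives were quantile normalization, median centring, a robust prior, averaging the probes of a gene, admitting probes measured on 1 array, other thresholds, natural logs and leaving out each array.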

Additional observations from a re-analysis of the deposited data

How the results depend on the processing

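The count of 3 negative member probes past 2-fold on each array was 6 at 1.5-fold, 0 at 3-fold and 5 with values read as natural logs, and leaving out an array gave 4 (without replicate 1) to 5 (without replicate 2). Shares of all probes were not counted under these alternatives, so the member counts have no background to be read against. The count on the positive side was 0 under every alternative run. The median over the 10 genes, -0.705, was -0.515 without replicate 1 and -0.765 without replicate 2, and -0.838 with S100a4 taken from probe 2 alone, an alternative chosen after seeing the data. Averaging both S100a4 probes turned probe 1's 0.41 to -0.335, by construction. limma called 0 member probes under each alternative that allows a test, with adjusted p-values between 0.0873 and 0.793. Without 1 array no residual degree of freedom is left, so limma's count was not run there. Each array held both stages, so a log ratio is already a difference within an array, and limma's test against 0 uses that pairing. No further pairing between the arrays was possible because both belong to 1 group. Without intensities, signal over background is unknown.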
